A study of Arabidopsis thaliana with 8 samples.

Results

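The comparison described here sets Arabidopsis thaliana seedlings that lack IBM1 against wild-type seedlings (WT) on Affymetrix ATH1 arrays. Its members are the 4 arrays whose genotype label reads IBM1 knockout (2 arrays) or WT (2 arrays), out of 8 arrays in the series; the other arrays come from the JMJ24-IBM1 double knockout and the JMJ24 knockout, with 2 arrays each. All plants were of the Col-0 accession. They received no treatment and were grown on MS medium at 0.5 times its usual strength at 60% humidity, with days of 16 h at 20 °C, nights of 8 h at 18 °C and light of 120 µmol per m2 and s. Total RNA of the aerial parts was taken at 12 days, and amplified, biotin-labelled material was hybridised, 5.5 µg per array. The labels state neither the mutant alleles nor whether replicate arrays stand for separate sets of plants; every p-value therefore measures only the spread among these samples, part or all of which may be technical. In RNA from whole aerial parts, more cells of a type and more RNA per cell cannot be told apart.

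IBM1 encodes a histone demethylase of the jumonji family. It removes methyl groups from lysine 9 of histone H3 within transcribed genes, and plants without it gain that mark and non-CG DNA methylation in many gene bodies, with pleiotropic defects of leaves, flowers and seeds that grow more severe over generations of inbreeding. JMJ24 encodes another jumonji protein. The arrays asked which transcripts differ in seedlings without these proteins.

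Values are log2 GCRMA values, 1 per probe set and array, so a difference of 1 is a doubling. Array medians lay between 3.42 and 3.52 and lower quartiles between 2.49 and 2.53; a genotype is called near background here where neither array exceeds its own lower quartile, and a difference from it is given as a bound against the quartile. The IBM1 probe set carries no name in the annotation used here, so the loss of its transcript was not checked. The tissue label was checked on genes of leaf photosynthesis and of root. RCA, which activates Rubisco, stood at 12.8 and 12.9 in the IBM1 knockout and at 12.9 on both WT arrays. Of 3 root genes measured, the root hair expansin genes EXPA7 and EXPA18 were at or below the lower quartile on all 8 arrays. The other, PYK10 of root and hypocotyl, stood at 9.26 and 9.63 in the IBM1 knockout and at 8.65 and 8.85 in WT, so the root list was not silent as a whole. Total RNA yields per the labels were 24 and 16.2 µg for the IBM1 knockout and 45.5 and 28.2 µg for WT. The difference between 3′ and 5′ actin control probe sets was 3.90 and 3.07 in the IBM1 knockout and 3.31 and 2.94 in WT, so its ranges overlap between the genotypes. The part of RNA yield or quality in any result was not tested.

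Of 22746 probe sets, 398 (1.75%) differed by at least 1 in the mean without overlap between the IBM1 knockout and WT arrays. Higher values in the IBM1 knockout made up 303 of these (1.33% of all probe sets) and lower values 95 (0.418%). Without regard to size, 4356 probe sets (19.2%) were higher without overlap and 4253 (18.7%) lower, so the surplus of higher over lower values appeared among the large differences. No value lay below 2.03, so a probe set near background in WT could be higher by 1 but not lower by 1. WT was near background for 33 of the 303 higher and 0 of the 95 lower probe sets. With dim probe sets left out, the counts were 181 and 74. The part of this floor in the surplus was not tested. The median of the 303 higher differences was 1.37 and the highest 5.73; 63 reached 2 and 20 reached 3. The median of the 95 lower differences was -1.2, and 1 of them reached 2 in size. A limma fit to all 8 arrays, with Benjamini-Hochberg adjustment over all probe sets, called 76 probe sets (0.334%) at an adjusted p under 0.05: 60 higher (0.264%) and 16 lower (0.0703%). Only 27 of the 303 higher and 2 of the 95 lower differences were among the calls, although 236 and 83 of them had an unadjusted p under 0.05; "rose" and "fell" below are used for calls alone. The calls rest on the spread shared over 8 arrays: with the IBM1 knockout and WT arrays alone, or without either WT array, 0 were called, and 2 were called without either JMJ24 knockout array.

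**Figure D1:**
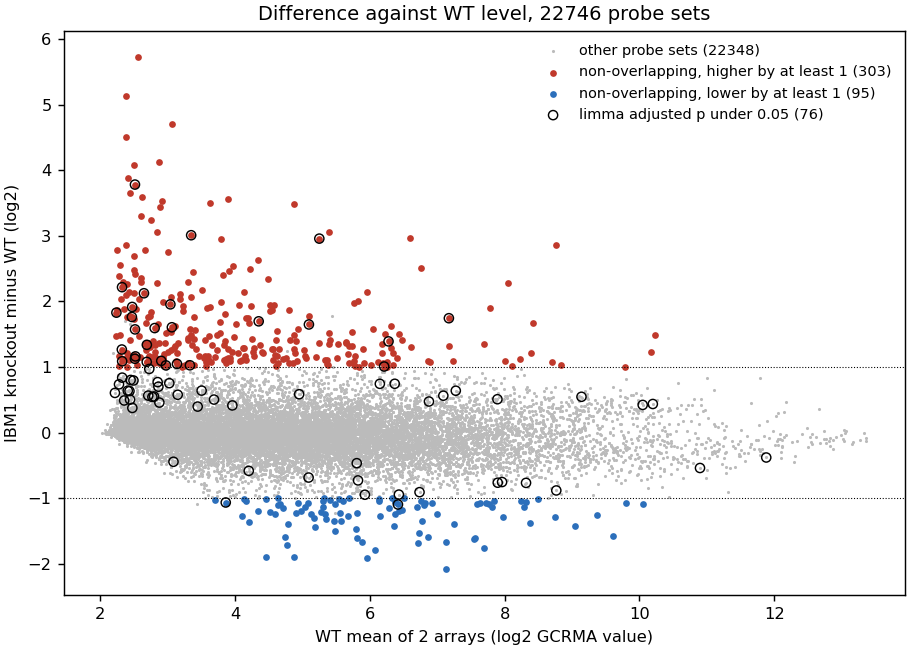
The IBM1 knockout minus WT difference (log2, vertical axis) is plotted against the WT mean of 2 arrays (log2 GCRMA value, horizontal axis) for 22746 probe sets; red and blue points are the 303 higher and 95 lower non-overlapping differences of at least 1, and black rings the 76 limma calls. The highest differences lie at low WT levels, and the lower differences are absent at WT levels near background, where a value cannot be lower by 1.

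Among probe sets that name a single gene, 149 genes of 13355 (1.12%) were higher by at least 1 without overlap and 45 (0.337%) lower; limma called 44 (0.329%). Of the higher probe sets 147 are unnamed here and 7 name several genes, and of the lower ones 47 and 2; these were counted and not described by function. The highest named difference was that of AT2G43620, a gene of the chitinase family, which stood at 7.28 and 6.72 in the IBM1 knockout, against 2.68 and 3.06 in WT. Both of its IBM1 knockout values lay far above WT, at 17.5-fold in the mean, and the limma adjusted p was 0.186 (SE 1.1). AT2G04460, annotated as a pseudogene and known as a transposable element gene, followed at 6.73 and 5.93 in the IBM1 knockout, against 2.89 and 2.87 in WT (adjusted p = 0.138). AT1G65500, of unknown function, had 6.01 and 6.0 in the IBM1 knockout and 3.16 and 2.36 in WT (adjusted p = 0.177). AT4G16240 is the only called gene of the 15 highest: it rose to 6.17 and 6.55 in the IBM1 knockout, against 3.32 and 3.38 in WT, a difference of 3.01 (SE 0.307, adjusted p = 0.0488). AT4G15390, an acyltransferase gene of the family that makes esters and amides of plant metabolites, stood at 4.85 and 5.22 in the IBM1 knockout and at 2.24 and 2.25 in WT, near background, or higher by at least 2.53 (adjusted p = 0.0756).

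**Figure D2:**
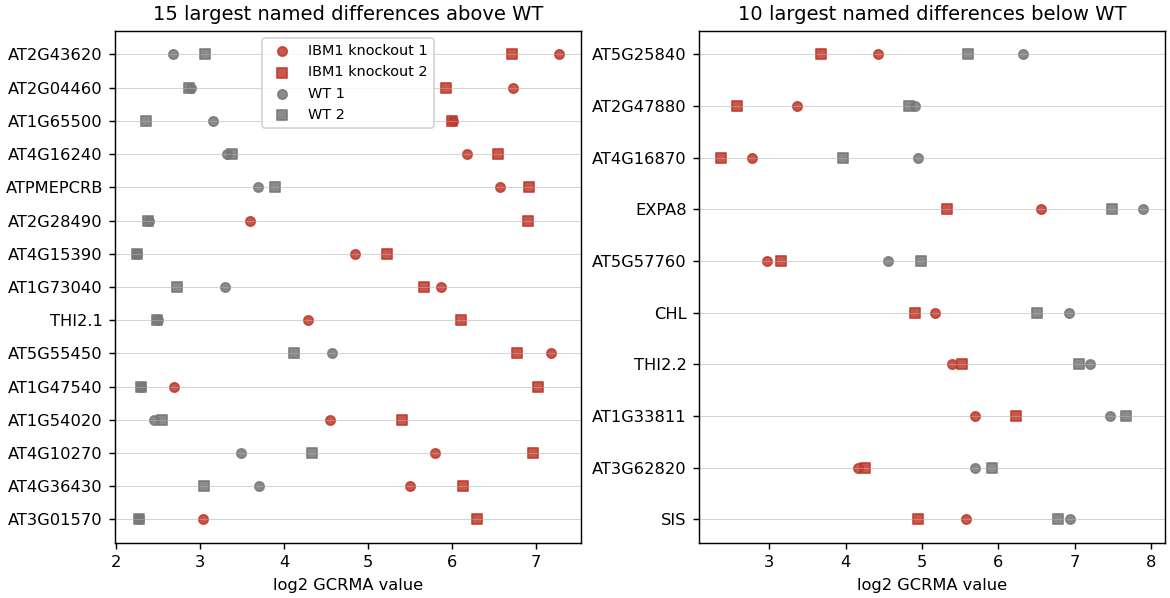
Log2 GCRMA values (horizontal axis) of each IBM1 knockout array (red) and WT array (grey) for the 15 named genes highest above WT, left, and the 10 furthest below, right; circles are replicate 1 and squares replicate 2. AT2G43620 and AT4G16240 stand clear of WT on both arrays, while AT2G28490, AT1G47540 and AT3G01570 are far higher on IBM1 knockout array 2 than on array 1.

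Function classes were assigned after the values were seen and hold only genes past 1, so a class count is a description with no number of measured members behind it; of the 194 named genes past 1, 76.8% were higher. Plants make chitinases and beta-1,3-glucanases that cut fungal walls, osmotins and thionins that damage microbial membranes, and class III peroxidases and lectins that act in the wall and at the cell surface. Of the chitinase list, 4 of 8 genes were measured under a name; 3 of these were higher by at least 1 without overlap, none was called, and the median difference was 1.71, against -0.005 over all named genes. CHI, a chitinase gene with 4 genes between it and AT2G43620 on the chromosome, stood at 5.43 and 4.82 in the IBM1 knockout, against 2.86 and 2.84 in WT (adjusted p = 0.165). AT4G01700 was higher by 1.14 (adjusted p = 0.109), and AT2G43590 differed by 0.80 (adjusted p = 0.257). AT4G16260, of the beta-1,3-glucanase family, is the called member of this group: it rose to 4.51 and 4.57 in the IBM1 knockout, against 2.31 and 2.34 in WT, near background, or by at least 2.04 (adjusted p = 0.00451). OSM34, the osmotin, stood at 5.96 and 6.61 in the IBM1 knockout and at 3.81 and 4.46 in WT (adjusted p = 0.0860).

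The small antimicrobial peptides did not move one way. THI2.1, a thionin induced by jasmonate, stood at 4.29 and 6.11 in the IBM1 knockout, against 2.50 and 2.49 in WT, near background, and was higher by at least 2.69 (adjusted p = 0.138). Its near relative THI2.2 lay lower, at 5.39 and 5.53 in the IBM1 knockout and 7.20 and 7.05 in WT (difference -1.66, adjusted p = 0.138). A further thionin gene, AT1G66100, also lay lower, with a difference of -1.26 (adjusted p = 0.204). The defensin genes PDF1.4 and LCR69 and the defensin-like gene AT2G43530 were higher by 1.1, 1.21 and 1.36, with adjusted p from 0.0674 to 0.293. PDF1.2b, a jasmonate and ethylene marker, rose by 0.75, to 3.74 and 3.82 in the IBM1 knockout, against 3.04 and 3.01 in WT (adjusted p = 0.0172), below the size of 1. It is the called gene among 3 measured of 20 on the jasmonate list. PDF1.2 of that list was uneven and not called, at 4.07 and 3.28 in the IBM1 knockout and 3.04 and 3.18 in WT (adjusted p = 0.682). Only 2 of 24 genes on the salicylic acid list were measured, and neither was called: SAG101, which acts with EDS1 in immune signalling, differed by 0.71 (adjusted p = 0.440), and GRX480, a glutaredoxin, stood at 2.61 and 2.65 in the IBM1 knockout and at 2.64 and 2.62 in WT.

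The 5 class III peroxidase genes among the differences of at least 1 were higher in the IBM1 knockout, where 76.8% of all named genes past 1 were higher, and none was called. AT4G36430 had the highest difference of them, with 5.50 and 6.13 in the IBM1 knockout, against 3.70 and 3.04 in WT (adjusted p = 0.106), and AT5G64120 the lowest, 1.34 (adjusted p = 0.425). Of 5 lectin genes found by symbol, 1 was higher by at least 1, none was lower or called, and the median was 0.57. Of the 4 lectin genes classed among the differences of at least 1, AT1G73040 of the jacalin type stood at 5.86 and 5.66 in the IBM1 knockout and at 3.30 and 2.73 in WT (adjusted p = 0.0674). JAL23, another jacalin lectin, had a like difference of 2.35 but arrays that lay further apart, 6.30 and 7.39 in the IBM1 knockout and 4.05 and 4.94 in WT (adjusted p = 0.425). AT1G35710, a leucine-rich repeat kinase gene, had 4.88 and 3.98 in the IBM1 knockout, against 2.49 and 2.58 in WT, and AT2G19970, of the PR-1-like family, 4.83 and 5.62 against 3.04 and 3.33 in WT. Neither was called (adjusted p = 0.261 and 0.0717).

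Among the differences of at least 1, 2 of 4 genes classed as pectin enzymes and 2 of 2 classed as dirigent proteins were called. Of all named genes past 1, 16 of the 149 higher and 2 of the 45 lower ones were called. Pectin is cut by pectate lyases and polygalacturonases after pectin methylesterases have removed its methyl groups, and dirigent proteins steer the coupling of phenolic radicals. AT3G27400, a pectate lyase gene, rose to 4.71 and 4.84 in the IBM1 knockout, against 2.63 and 2.67 in WT (difference 2.13, SE 0.208, adjusted p = 0.0433). AT3G15720, of the pectin lyase-like family, rose to 4.54 and 4.24 in the IBM1 knockout, against 2.49 and 2.46 in WT, near background, or by at least 1.89 (adjusted p = 0.0375). The dirigent genes AT3G13650 and AT1G55210 rose by 1.59 and 1.39 (adjusted p = 0.0167 and 0.0324). The pectin methylesterase ATPMEPCRB had a higher difference than any of these, with 6.57 and 6.92 in the IBM1 knockout, against 3.69 and 3.90 in WT, and was not called (adjusted p = 0.212). Its other arrays were uneven: the double knockout stood at 4.11 and 5.71 and the JMJ24 knockout at 6.21 and 4.02.

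Wall-loosening genes differed in both directions. Expansins loosen the wall during growth, and xyloglucan endotransglucosylases cut and rejoin its xyloglucan. Of 19 expansin genes measured, 1 was higher by at least 1, 1 was lower, and the median difference was -0.004. EXPA8 lay lower, at 6.56 and 5.33 in the IBM1 knockout and 7.90 and 7.49 in WT (adjusted p = 0.260), and the expansin-like EXLA1 lay higher, at 6.38 and 7.74 in the IBM1 knockout and 5.10 and 6.37 in WT, with a gap of under 0.01 between the nearest arrays (adjusted p = 0.607). XTH19, 1 of 11 xyloglucan endotransglucosylase genes measured, was higher by 1.06 (adjusted p = 0.349).

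Among the differences of at least 1, 9 genes were classed as lipid transfer proteins: 8 were higher, 1 was lower and 1 was called. Of all 194 named genes past 1, 76.8% were higher, and 16 of the 149 higher ones were called. How many genes of the large lipid transfer family were measured was not counted. These small secreted proteins bind lipids and serve in cuticle deposition and defence. AT3G18280 rose to 8.87 and 8.97 in the IBM1 knockout, against 7.12 and 7.22 in WT, a difference of 1.74 (SE 0.174, adjusted p = 0.0460). AT5G55450 had the highest difference of the class, with 7.18 and 6.77 in the IBM1 knockout, against 4.58 and 4.11 in WT (adjusted p = 0.142). AT4G12490 and AT1G62790 were higher by 2.15 and 1.87 (adjusted p = 0.0674 and 0.0756). AT4G22490, the exception, stood at 9.26 and 8.69 in the IBM1 knockout and at 10.2 and 9.91 in WT (adjusted p = 0.141). GDSL lipases, a large family of esterases with roles in cutin, seed oil and defence, split: 3 were higher and 2 lower, none of them called. AT1G54020 had 4.55 and 5.40 in the IBM1 knockout, against 2.45 and 2.55 in WT (adjusted p = 0.0742), and AT1G33811 had 5.69 and 6.23 in the IBM1 knockout, against 7.46 and 7.67 in WT (adjusted p = 0.0984).

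The 5 genes classed as seed storage and oil body proteins were higher in the IBM1 knockout, far more on array 2 than on array 1. Of all named genes past 1, 76.8% were higher. Storage globulins and oleosins are made as the embryo matures and are normally silent in green seedlings. The vicilin-like gene AT2G28490 stood at 3.60 and 6.90 in the IBM1 knockout and at 2.39 and 2.38 in WT. The oleosin genes OLEO3 and AT3G01570 stood at 3.43 and 5.82, and at 3.04 and 6.29, in the IBM1 knockout; in WT they were near background, at 2.35 and 2.33 and at 2.27 and 2.28. PAP85, a further vicilin, had 2.84 and 5.39 in the IBM1 knockout, against 2.26 and 2.23 in WT. The class admits only genes without overlap, so by that rule every IBM1 knockout array lay above every WT array. The greater distance was on array 2, and the adjusted p ranged from 0.256 to 0.403 over the 5 genes of the class. On a list of 47 seed maturation genes chosen after these values were seen, 23 were measured: 7 were higher by at least 1 without overlap, none lower, and the median difference was 0.44. The log2 of their summed level was 7.41 and 9.14 on the IBM1 knockout arrays, against 7.13 and 7.03 on those of the double knockout, 7.06 and 7.10 on those of the JMJ24 knockout and 7.10 and 7.05 on those of WT. AT1G03890, a cruciferin-like storage gene, was high on array 2 alone, at 2.29 and 4.91 in the IBM1 knockout and 2.32 and 2.31 in WT, so its groups overlap. Others of the list were flat: AT2G25890 stood at 2.30 and 2.34 in the IBM1 knockout and at 2.32 and 2.31 in WT, and AT2G18540 differed by -0.02. Whether the harvest held seed coats or embryos cannot be told from the labels. LEA18 of that list rose by 0.55 on even arrays, to 3.32 and 3.38 in the IBM1 knockout, against 2.80 on both WT arrays (adjusted p = 0.0361).

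**Figure D3:**
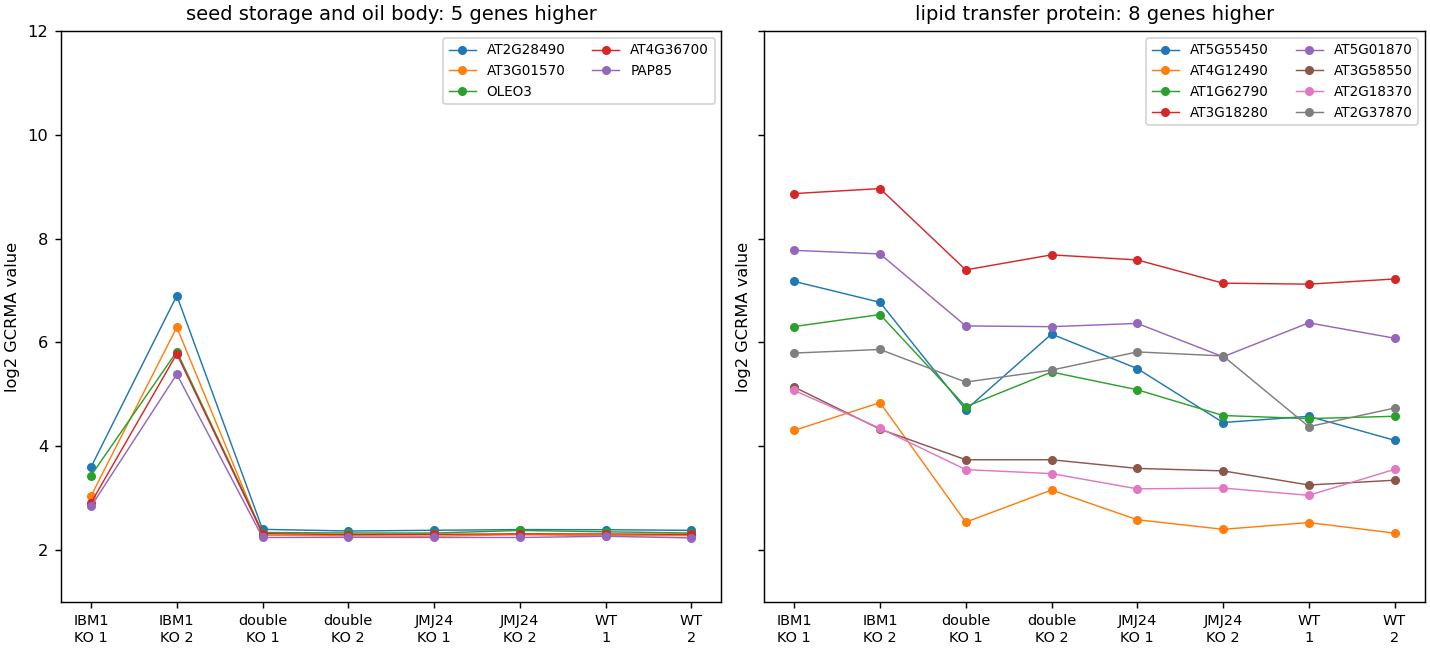
Log2 GCRMA values (vertical axis) of the 5 seed storage and oil body genes, left, and the 8 lipid transfer protein genes, right, that stood higher in the IBM1 knockout, on each of the 8 arrays; lines join the values of a gene. The seed genes stand high on IBM1 knockout array 2 and near 2.3 on all 6 arrays of the other genotypes, while the lipid transfer genes stand at like levels on both IBM1 knockout arrays.

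The seed genes belong to a wider set of probe sets with that pattern. Of the 303 higher probe sets, 40 were higher on IBM1 knockout array 2 than on array 1 by at least 1, and 1 the other way round; over all probe sets the counts were 75 and 62. A set of 24 was defined after the values were seen: below 3 on all 6 arrays of the other genotypes, and higher by at least 1 on IBM1 knockout array 2 than on array 1. Their medians were 3.39 on array 1 and 5.85 on array 2 of the IBM1 knockout, and at most 2.42 on any other array. None of the 24 was called. The gap that defines them adds to the spread in the fit, so that follows in part from the choice. The 24 hold 3 of the 5 and 6 of the 10 highest differences of all probe sets. The probe set highest of all, unnamed here, stood at 6.09 and 10.5 in the IBM1 knockout, against 2.68 and 2.45 in WT (adjusted p = 0.158). AT1G47540, a trypsin inhibitor of the knottin fold, stood at 2.68 and 7.02 in the IBM1 knockout and at 2.30 and 2.29 in WT (adjusted p = 0.516). A further 23 higher probe sets were as low on the other 6 arrays but even between the IBM1 knockout arrays, and 11 of these were called. Evenness, by which they were chosen, likewise favours a call. Without the 24, 279 higher probe sets remained. Array 2 of the IBM1 knockout also had the lowest RNA yield of the 8 arrays; its part was not tested.

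**Figure D4:**
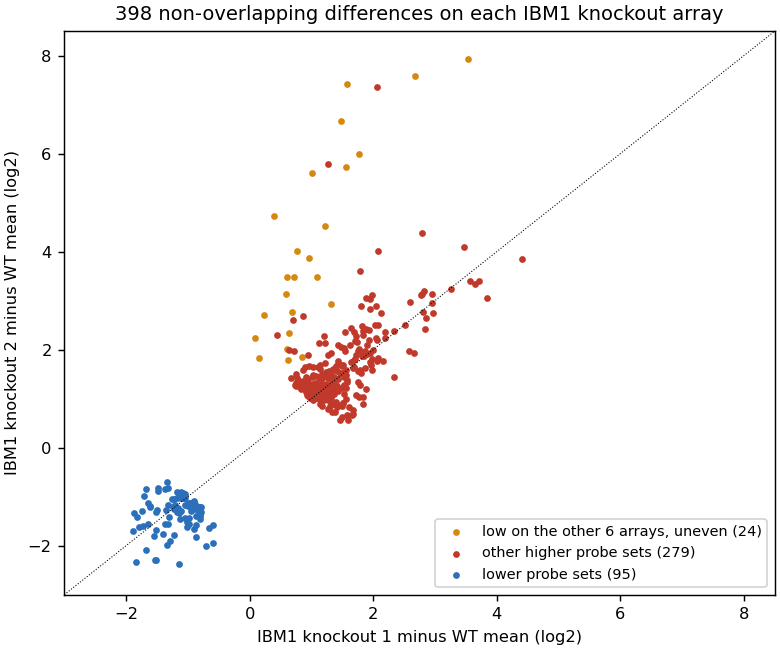
Each of the 398 probe sets is plotted by its difference from the WT mean (log2) on IBM1 knockout array 1 (horizontal axis) and array 2 (vertical axis), with the 24 uneven probe sets in orange, the other 279 higher ones in red and the 95 lower ones in blue; the dotted line marks equal differences. The orange points stand far above the line, and most others lie close to it.

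Late embryogenesis abundant (LEA) proteins protect drying cells. Of 7 genes of the LEA and dehydrin family found by symbol, 1 was higher by at least 1 without overlap, none was lower, 1 was called and the median was 0.24. AT3G02480, of the LEA family but with no such symbol, rose to 5.99 and 6.11 in the IBM1 knockout, against 4.41 and 4.29 in WT (difference 1.70, SE 0.115, adjusted p = 0.0245). AT5G53820 and AT2G46140, of the same family, were higher by 1.76 and 1.29 (adjusted p = 0.0663 each), and M17 stood at 3.83 and 5.43 in the IBM1 knockout and at 2.51 and 2.49 in WT. Other members were flat or uneven: AtLEA4-1 differed by 0.03 and AT3G53040 by 0.02, while LEA4-5 stood at 2.83 and 3.74 in the IBM1 knockout and at 2.85 and 2.84 in WT. Of the 4 genes measured among 22 on the cold and abscisic acid list, none differed by 1 or was called, and the median was 0.20. LTI30, a dehydrin, differed by 0.32 (adjusted p = 0.324).

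Of 18 genes on the anthocyanin and flavonoid list, 5 were measured; 3 were higher by at least 1 without overlap and none was called. DFR makes leucoanthocyanidins, and UF3GT and AT4G14090 attach sugars to the finished anthocyanin. DFR stood at 7.63 and 8.24 in the IBM1 knockout, against 6.40 and 6.23 in WT (adjusted p = 0.305). AT4G14090 had 5.57 and 5.33 in the IBM1 knockout and 4.43 and 3.54 in WT (adjusted p = 0.235), and UF3GT 5.62 and 5.63 against 4.42 and 4.38 in WT (adjusted p = 0.193). The members under 1 were UGT78D2, at 0.59, and AT5MAT, at 0.39 with arrays that overlap those of WT, and the median over the 5 was 1.23.

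Other enzymes of sugar conjugates went both ways. Of 20 beta-glucosidase genes measured, 3 were higher by at least 1, 1 was lower and 1 was called, with a median of 0.007. BGLU15 rose to 4.22 and 4.15 in the IBM1 knockout, against 3.15 and 3.13 in WT (difference 1.05, adjusted p = 0.0271). Its direct neighbour on the chromosome, BGLU28, lay lower, at 4.77 and 3.46 in the IBM1 knockout and 6.15 and 4.79 in WT (adjusted p = 0.430); it hydrolyses glucosinolates when sulphur is short. BGLU25 was higher by 1.55 and BGLU19 by 1.35 (adjusted p = 0.125 and 0.154). BGLU19 is one of the 24 uneven probe sets described above, at 3.51 and 4.52 in the IBM1 knockout. Among 46 genes whose symbol or synonym spells out a glucosyl or glycosyl transferase, 1 was higher, 1 lower and the median was -0.006; this match did not take in UGT72E2 and is no count of the whole family. AT5G05890, a glycosyltransferase gene without a family symbol, fell by 1.07, to 2.86 and 2.73 in the IBM1 knockout, against 3.78 and 3.94 in WT (adjusted p = 0.0488). UGT72E2, which glucosylates monolignols, was higher by 1.40 (adjusted p = 0.0857).

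Of 12 genes on the senescence and glyoxylate cycle list, 3 were measured; 2 were higher by at least 1 without overlap and 1 was called. ICL, the isocitrate lyase by which oil reserves feed sugar synthesis, rose to 3.34 and 3.49 in the IBM1 knockout, against 2.33 and 2.32 in WT, near background, or by at least 0.91 (adjusted p = 0.0145). SAG29, a sugar exporter of senescing leaves, was higher by 1.28 (adjusted p = 0.337) and the leaf yellowing gene YLS5 likewise by 1.28 (adjusted p = 0.163). WRKY53, a regulator of senescence, had 3.88 and 2.91 in the IBM1 knockout and 2.74 and 2.97 in WT, and its groups overlap. MT1C, a metallothionein, which binds copper and zinc, stood at 10.1 on both IBM1 knockout arrays and at 8.41 and 8.43 in WT (adjusted p = 0.154). APL3, a subunit of the enzyme that supplies starch synthesis, was higher by 1.35 and the sugar transporter AT5G61520 by 1.66 (adjusted p = 0.240 and 0.251). Of 17 sugar transporter genes found by symbol, 1 was higher by at least 1, none was lower or called, and the median was -0.009. The 3 aspartyl protease genes among the differences of at least 1 were higher, where 76.8% of all named genes past 1 were higher. How many of the family were measured was not counted. NANA and AT1G49050 each stood 1.29 above WT (adjusted p = 0.0757 and 0.0756).

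**Figure D5:**
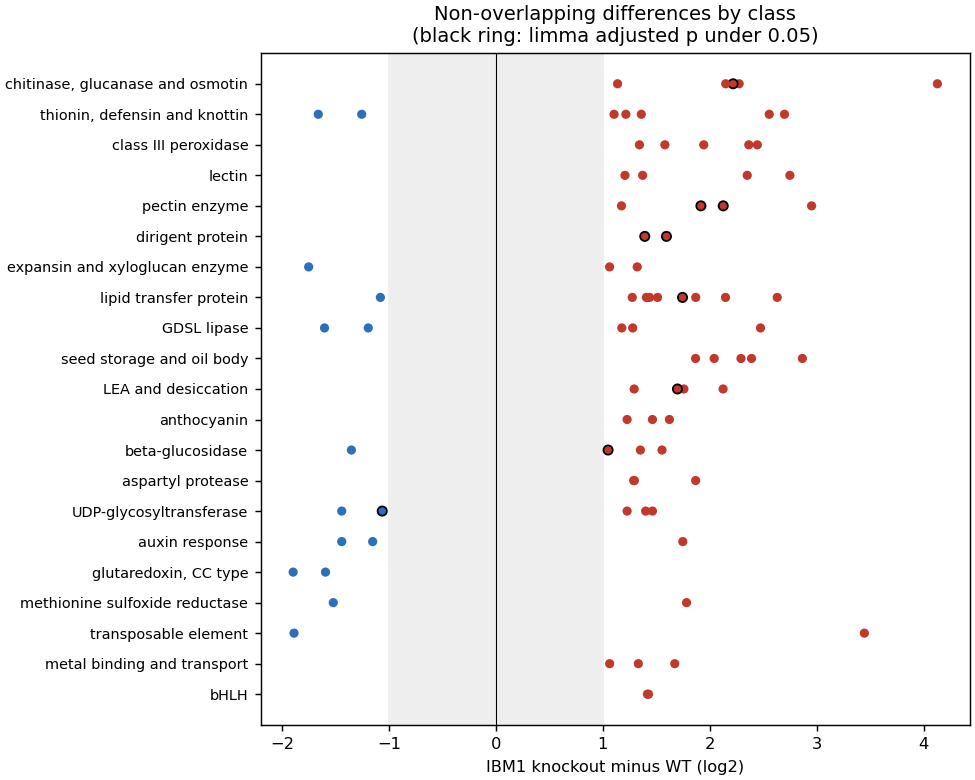
Each point is a gene that differed by at least 1 without overlap, placed by its IBM1 knockout minus WT difference (log2, horizontal axis) and its class (rows); red is higher, blue lower, and black rings mark limma calls. Chitinases, peroxidases, lectins, pectin enzymes and seed proteins lie to the right alone, while thionins, beta-glucosidases and GDSL lipases lie on both sides; classes were assigned after the values were seen and hold only genes past 1.

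The lower genes were fewer. The named gene furthest below WT was AT5G25840, of unknown function, at 4.43 and 3.68 in the IBM1 knockout, against 6.32 and 5.60 in WT (difference -1.91, adjusted p = 0.185). Both CC-type glutaredoxin genes among the differences of at least 1 were lower, where 45 of all 194 named genes past 1 were lower. These proteins of the ROXY family bind TGA transcription factors. AT2G47880 stood at 3.36 and 2.58 in the IBM1 knockout and at 4.92 and 4.83 in WT (adjusted p = 0.355), and AT3G62950 at 3.22 and 3.07 in the IBM1 knockout and 4.83 and 4.66 in WT (adjusted p = 0.0999). CHL, the plastid lipocalin that protects thylakoid lipids from oxidation, stood at 5.17 and 4.91 in the IBM1 knockout, against 6.93 and 6.50 in WT (adjusted p = 0.114). IAGLU, which joins glucose to auxin, had 3.85 and 3.62 in the IBM1 knockout and 5.14 and 5.23 in WT (adjusted p = 0.0674), and the auxin response repressor IAA29 differed by -1.15 (adjusted p = 0.663). ALN, allantoinase of purine breakdown, differed by -1.31 (adjusted p = 0.117), and SIS, a gene induced by salt, by -1.60 (adjusted p = 0.135). Methionine sulfoxide reductases, which repair oxidised methionine, opposed each other: MSRB9 stood at least 1.72 above WT, and MSRB6 differed by -1.52 (adjusted p = 0.232 and 0.15).

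The called falls were small. AT4G17245, of the RING finger family, fell by 1.1, to 5.25 and 5.40 in the IBM1 knockout, against 6.31 and 6.53 in WT (SE 0.0904, adjusted p = 0.0327); with AT5G05890 it makes up the called falls of at least 1. AT2G23840 fell by 0.95 and AT4G28260 by 0.94 (adjusted p = 0.0167 and 0.0327). NdhN, a subunit of the chloroplast NADH dehydrogenase-like complex, which returns electrons around photosystem I, fell by 0.76, to 7.14 and 7.13 in the IBM1 knockout, against 7.83 and 7.96 in WT (adjusted p = 0.0327). Genes of the photosynthesis list did not pass: of 3 measured among 18, the antenna gene LHCB4.2 differed by -0.20 (adjusted p = 0.173), and the median was -0.10. Among probe sets of the chloroplast genome, psaA differed by -1.07 and psaC by 1.21, both without overlap (adjusted p = 0.185 and 0.243).

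In all, 47 of the 76 calls were under 1 in size, 33 higher and 14 lower. ATLP-1, a thaumatin-like gene, rose by 0.74 (adjusted p = 0.0490) and AT3G13610, an enzyme of scopoletin synthesis, by at least 0.32 from near background (adjusted p = 0.0167). Among calls of at least 1, AT3G15650, of the alpha/beta hydrolase family, rose to 5.13 and 4.87 in the IBM1 knockout, against 3.06 and 3.03 in WT (SE 0.0886, adjusted p = 0.0121). AT5G10580, of unknown function, rose by 1.16 (adjusted p = 0.00674).

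ATC was the called gene of the flowering list, on which 4 of 21 genes were measured. ATC is a relative of the flowering repressor TFL1 and delays flowering when overexpressed. It rose to 4.18 and 4.28 in the IBM1 knockout, against 2.48 and 2.46 in WT, near background, or by at least 1.73 (adjusted p = 0.00451). The AP2-type repressors SMZ and SNZ differed by -0.40 and -0.44 and were not called (adjusted p = 0.176 and 0.527). Of the silencing and chromatin list, 3 of 32 genes were measured and none was called. QQS, whose expression is set by DNA methylation of repeats at its start, stood at 4.78 and 5.54 on the IBM1 knockout arrays, against 5.70 and 4.99 on those of the double knockout, 4.78 and 6.07 on those of the JMJ24 knockout and 3.85 and 3.94 on those of WT (adjusted p = 0.362 for the IBM1 knockout). DME, which encodes an enzyme that removes DNA methylation, differed by 0.10 (adjusted p = 0.478), and LDL2, a histone demethylase gene, stood at 2.44 and 2.53 in the IBM1 knockout and 2.45 and 2.46 in WT. SQN, a cyclophilin needed for microRNA activity, was higher by 1.57 (adjusted p = 0.0977). Of 989 annotated pseudogenes measured, 2 were higher by at least 1 and 1 was lower; the transposon-related gene AT4G16870 stood at 2.78 and 2.36 in the IBM1 knockout and at 4.95 and 3.97 in WT, the opposite of AT2G04460.

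Other lists held no difference of at least 1. Both glucosinolate genes measured, BCAT4 and UGT74B1, of 23 listed, differed by 0.39 and 0.08. GI, the clock gene measured of 9, stood at 5.17 and 4.51 in the IBM1 knockout and at 4.94 and 4.29 in WT, and ATHSP22.0, the heat shock gene measured of 9, was near background on all arrays. The stomatal regulator FMA differed by -0.26 (adjusted p = 0.625), and TRY, a repressor of trichome fate, by -0.03. Of 9 guard cell and 4 trichome genes listed, 3 and 1 were measured. Of 19 root genes listed, 3 were measured, with a log2 summed level of 9.28 and 9.65 in the IBM1 knockout and of 8.68 and 8.88 in WT; nearly all of it was PYK10, the root and hypocotyl beta-glucosidase, which stood at 9.26 and 9.63 in the IBM1 knockout and at 8.65 and 8.85 in WT (adjusted p = 0.440). No member of the phloem, floral organ and first seed and embryo lists was measured under a name, so they give no value.

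The double knockout is labelled as lacking IBM1 as well. Its difference from WT uses the same WT arrays, so values are given side by side. The loss of IBM1 was not checked on any array and the labels give no alleles or generations, so the part of these in what follows was not tested. The called probe sets were chosen by their IBM1 knockout difference from WT. A smaller distance of the double knockout is in part fixed by that choice. Over the 60 called higher probe sets, the median difference from WT was 0.80 in the IBM1 knockout, against 0.07 in the double knockout and 0.03 in the JMJ24 knockout; in 59 of the 60 the distance of the double knockout mean from WT was under 0.5 times that of the IBM1 knockout mean. Over the 16 called lower ones the medians were -0.76, -0.24 and -0.14, and this held for 10 of 16. ATC, for example, stood at 4.18 and 4.28 on the IBM1 knockout arrays, against 2.60 and 2.54 on those of the double knockout, 2.55 and 2.49 on those of the JMJ24 knockout and 2.48 and 2.46 on those of WT. The interaction, (double minus JMJ24 knockout) minus (IBM1 knockout minus WT), sets the double knockout against the JMJ24 knockout and not against WT. It is therefore no test of the counts above. For this interaction, limma called 3 of 22746 probe sets (0.0132%), all named. They were AT4G16260, ATC and AT5G10580, at -2.21, -1.71 and -1.14 (adjusted p = 0.0274, 0.0274 and 0.0444). With the replicate block, or without any 1 array of WT, the JMJ24 knockout or the double knockout, 0 were called.

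Single arrays of the other genotypes also stood apart from WT in these probe sets. The limma calls favour probe sets with even arrays within every genotype, so the counts over the calls depend in part on that. The 303 and 95 were chosen on the IBM1 knockout and WT arrays alone. Distances from WT below use those same WT arrays, so they are not independent of that choice. Of the 303 higher probe sets, 89 stood at least 1 above the WT mean on double knockout array 2 and 48 on JMJ24 knockout array 1, against 2 on double knockout array 1 and 5 on JMJ24 knockout array 2. AT2G43620 shows it, with 7.28 and 6.72 on the IBM1 knockout arrays, against 3.06 and 5.62 on those of the double knockout, 5.52 and 3.14 on those of the JMJ24 knockout and 2.68 and 3.06 on those of WT. For the 95 lower probe sets the counts at least 1 below the WT mean were 14 on double knockout array 2 and 7 on JMJ24 knockout array 1, against 5 on double knockout array 1 and 2 on JMJ24 knockout array 2. The 2 arrays of a genotype thus differ from each other in these genes outside the IBM1 knockout. On all 4 of these arrays, 85 of the 303 higher and 17 of the 95 lower probe sets lay within 0.5 of the WT mean.

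The genes were spread over the genome. Between 0.993% and 1.2% of the measured genes of each nuclear chromosome were higher by at least 1, and between 0.221% and 0.517% lower. Among the named genes past 1, 11 neighbouring pairs had at most 4 genes between them, of which 9 differed the same way and 2 opposite ways. Since 76.8% of these genes were higher, most pairs of them share a direction wherever they lie. No expected number of neighbouring pairs is given here, so the counts are a description. AT4G16240 and AT4G16260, both called, have 1 gene between them on chromosome 4. AT2G43530, CHI and AT2G43620 on chromosome 2 have 4 genes between each and the next and were all higher, and AT5G52750 and AT5G52760, metal-binding protein genes on chromosome 5, are direct neighbours, higher by 1.06 and 1.33. AT5G02540 and AT5G02550, also direct neighbours, both lay lower, with differences of -1.26 and -1.5. No promoter or coding sequence was used here.

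At the size limit, AT1G04560 and AT2G47010 were just inside, with differences of 1.0004 and 1.0035, and PDF2.1 and AT5G22460 just outside, both at 0.99. Below WT, AT5G54530 and AT3G16750 were just inside, at -1.0023 and -1.0109, and AT1G79510 and AT5G47610 just outside, at -0.9959 and -0.9922.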

How the data were processed

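The deposited table holds the authors' log2 values, 1 per probe set and array, from 2.03 to 13.6; the submitters' processing notes name GCRMA, of unstated version. GCRMA adjusts background by probe sequence, makes array distributions alike and summarises probes, so low values are compressed. The number of arrays limits the precision. Of 22810 probe sets, 64 controls were left out and 22746 tested. The platform annotation, updated through a gene table of assembly TAIR10.1 (13436 of 13513 single-gene probe sets matched), named 1 gene for 13513, several for 503 and none for 8730; the probe set with the highest mean stood for a gene.

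Groups came from the genotype labels. limma 3.58.1 in R 4.3.3 fitted 1 mean per genotype to all 8 arrays (4 residual degrees of freedom, prior of 1.2), and all adjusted p are from it unless another fit is named; it was also tested on simulated data. Sizes of at least 1 without overlap are counts with no test. Members, lists and naming rules were chosen with earlier results of these data known. Genes named were the 15 highest and 10 lowest, up to 4 per symbol family and 5 per list, and up to 5 called each way; the function classes, seed maturation list, 24 uneven probe sets and remaining named genes were chosen after their values were seen. The tables used here hold no gene descriptions, so families were matched on symbols and synonyms instead, with false matches removed after inspection, and roles are general knowledge. Planned promoter motifs were not run. Alternatives were quantile normalization, median centring, leaving out dim probe sets (no genotype mean reaching 5), limma-trend, treat at 0.5, the compared pair alone, the replicate number as a block, other sizes, and leaving out each array.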

Additional observations from a re-analysis of the deposited data

Results flagged for a closer look

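The effect of IBM1 loss differed with and without JMJ24 for 3 genes by limma's interaction term, (double knockout minus JMJ24 knockout) minus (IBM1 knockout minus WT). AT4G16260 stood at 4.51 and 4.57 on the IBM1 knockout arrays, against 2.35 and 2.45 on those of the double knockout, 2.47 and 2.31 on those of the JMJ24 knockout and 2.31 and 2.34 on those of WT, an interaction of -2.21 (adjusted p = 0.0274). ATC had an interaction of -1.71 (adjusted p = 0.0274), and AT5G10580, with 3.67 and 3.70 on the IBM1 knockout arrays, against 2.58 and 2.50 on those of the double knockout, 2.51 and 2.52 on those of the JMJ24 knockout and 2.49 and 2.55 on those of WT, one of -1.14 (adjusted p = 0.0444). None of the 3 was called with the replicate block, with the filter on dim probe sets, which their levels do not reach, or without any 1 array of WT, the JMJ24 knockout or the double knockout. The loss of IBM1 was not checked on any array. The cause was not tested.

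Among control probe sets, which no comparison used, the 5S ribosomal RNA control stood at 3.80 and 3.57 on the IBM1 knockout arrays, against 2.73 and 2.71 on those of the double knockout, 2.70 and 2.73 on those of the JMJ24 knockout and 2.71 and 2.65 on those of WT. The IBM1 knockout mean was higher than WT by 1.01.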

How the results depend on the processing

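With 2 arrays a genotype, calls depended on the spread shared with the other genotypes. Against 76 calls (60 higher, 16 lower), quantile normalization gave 88 (70 and 18) and centring 71 (48 and 23). The limma-trend fit gave 112 (90 and 22) and the filter on dim probe sets 82 (50 and 32). Of the 76 calls, 59 were kept with quantile normalization, 49 with centring, 55 with limma-trend and 20 with the dim filter. The IBM1 knockout and WT arrays alone gave 0 (3562 with an unadjusted p under 0.05), the replicate block 0 (3581) and limma's treat at 0.5 gave 4. Leaving out 1 array at a time gave 0 to 165: 0 without either WT array, 2 when either array of the JMJ24 knockout was dropped, 19 for either one of the double knockout, 52 without IBM1 knockout array 2 and 165 without array 1. The 3 interaction calls became 0 with the dim filter, 0 with the replicate block and 0 to 68 when an array was left out, 68 without IBM1 knockout array 1 and 12 without array 2. Replicate numbers were not taken to pair the samples, since the labels name no shared batch and the deviations of same-numbered arrays did not correlate in every pair of genotypes: at 0.208 between the IBM1 knockout and WT, 0.156 between the IBM1 and double knockouts, 0.121 between the IBM1 and JMJ24 knockouts and 0.164 between the double knockout and WT, but at 0.037 between the JMJ24 knockout and WT and at -0.31 between the double and JMJ24 knockouts. With 2 arrays a genotype, a shared batch is not excluded by these values. The 303 higher and 95 lower differences of at least 1 were 300 and 99 after quantile normalization, 284 and 112 after centring, 181 and 74 with the dim filter, 63 and 1 at a size of 2, 1115 and 930 at 0.5, and 206 and 49 with the replicate block, where each same-numbered pair had to lie 1 apart. With every IBM1 knockout array at least 1 from every WT array, an alternative chosen after seeing the data, they were 171 and 29, and without the 24 uneven probe sets 279 higher ones. Leaving out 1 array gave 316 to 350 higher and 106 to 193 lower, 193 without IBM1 knockout array 1 and 154 without either WT array; fewer arrays make overlap rarer. Where groups do not overlap, leaving out an IBM1 knockout or WT array cannot reverse the sign. The compared pair alone, the replicate block and leaving out any other array do not alter the difference. For differences chosen without overlap, the sign was thus fixed in advance in most alternatives. Of 113 named differences followed through 13 alternatives each, the 95 of at least 1 without overlap kept their sign. Those that changed sign, none of them called, crossed 0 when an array was left out: GRX480 ranged from -0.0237 to 0.0156 (0.0053 without WT array 1), COR15A from -0.0396 to 0.673, GI from -0.1095 to 0.5556 (-0.0993 without WT array 2), MUTE from -0.0318 to 0.0021 (0.0062 against the lower quartile), TRY from -0.0855 to 0.0209, and ATHSP22.0 from -0.0027 to 0.0154 (-0.0019 without WT array 2, -0.0258 after centring). In each case the cause was not tested. Low signal limits what can be seen: 33 of the 303 higher probe sets had WT near background on both arrays, so those differences are bounds.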
